A study of Mus musculus with 2 samples.

Results

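Vascular smooth muscle cells were examined in the single-cell RNA profiles of 2 mouse muscles, the quadriceps of the hind limb and the diaphragm, the muscle of breathing. Members of the class were selected on the measured counts themselves: a barcode needed at least 1000 unique molecular identifiers (UMIs, 1 per captured transcript molecule) in all, at least 5 UMIs of Myh11, at least 20 UMIs of Acta2 and Tagln together, under 50 UMIs of Dcn and at most 50% of its UMIs from the 13 mitochondrially encoded genes. This gave 1169 members among 7442 barcodes with at least 1000 UMIs, out of 7658 barcodes in the files. Quadriceps held 1127 members and diaphragm held 42. Both groups came from C57BL/6J mice, with no treatment, transgene or age in the labels, and the 10 animals of the study gave a pool of 5 diaphragms and a pool of 5 quadriceps, each made into a single droplet library read from the 3′ ends of transcripts. Mononuclear cells were freed with collagenase B and dispase II, layered on a Lympholyte-M density cushion and sorted for viability by light scatter. With 1 library per muscle there was no replicate, the individual animals cannot be told apart, and no test between muscles was possible, so values are set side by side, and the 95% intervals given with shares and ratios cover counting error only.

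Smooth muscle cells wrap arteries, arterioles and veins and set vessel calibre by contracting and relaxing. Contraction starts when calcium enters through membrane channels or leaves internal stores, binds calmodulin and activates myosin light chain kinase, and it ends when myosin phosphatase removes the phosphate. Mature contractile cells make smooth muscle myosin heavy chain (Myh11), smooth muscle actin (Acta2) and the actin-binding proteins transgelin (Tagln), calponin and leiomodin, a program that serum response factor and its partner myocardin drive through a DNA element called the CArG box.

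The CArG box (CC, then 6 bases that are each A or T, then GG, which reads as a box on both strands) was searched in the RefSeq promoter windows of GRCm38.p6, which run from 250 bases before to 50 bases after a gene's start. Of 263 genes that stood at least 4-fold above the other barcodes in both libraries (described below), 192 had a window in this table, with 270 windows in all. A box was present in 13 of these 270 windows (4.81%), in 37 of 1447 windows (2.56%) of the 1403 genes that passed the same filter on level, and in 535 of all 32851 windows (1.63%). A match is a description of the letters and not a binding site. The upstream parts of 4 such windows are shown, for 2 myosin light chains and 2 further genes with high levels in the class, with the box in capitals and the position of its first base counted back from the start of the gene.

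Myl9 promoter (chr2:156775214-156775463, plus strand): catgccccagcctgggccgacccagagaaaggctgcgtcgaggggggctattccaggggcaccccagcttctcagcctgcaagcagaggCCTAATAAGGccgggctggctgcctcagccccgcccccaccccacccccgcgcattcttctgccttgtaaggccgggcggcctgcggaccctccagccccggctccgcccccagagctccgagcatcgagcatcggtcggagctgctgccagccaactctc

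Myl6 promoter (chr10:128493010-128493259, minus strand): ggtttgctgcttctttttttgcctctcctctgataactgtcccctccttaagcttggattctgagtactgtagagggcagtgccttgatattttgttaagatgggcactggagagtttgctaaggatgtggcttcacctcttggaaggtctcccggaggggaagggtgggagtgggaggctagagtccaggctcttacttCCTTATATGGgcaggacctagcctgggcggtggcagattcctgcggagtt

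Fbxl22 promoter (chr9:66514594-66514843, minus strand): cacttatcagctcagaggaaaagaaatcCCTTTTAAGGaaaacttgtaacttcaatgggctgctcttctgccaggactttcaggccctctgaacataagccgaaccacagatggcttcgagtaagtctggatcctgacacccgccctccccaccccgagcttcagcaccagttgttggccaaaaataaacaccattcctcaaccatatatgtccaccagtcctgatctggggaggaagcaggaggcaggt

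Asb2 promoter (chr12:103356002-103356251, minus strand): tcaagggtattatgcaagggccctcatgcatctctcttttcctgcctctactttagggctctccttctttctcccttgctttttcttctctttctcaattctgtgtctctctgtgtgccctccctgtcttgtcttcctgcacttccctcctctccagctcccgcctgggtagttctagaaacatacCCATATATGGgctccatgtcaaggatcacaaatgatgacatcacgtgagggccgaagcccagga

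The box began 161 bases before the start of Myl9, 50 bases before 1 of the 2 starts of Myl6 in the table (the window of the other had no box), 222 bases before that of Fbxl22 and 64 bases before that of Asb2. Myl9, the regulatory light chain of smooth muscle myosin, was at 10733 CPM in quadriceps and 8162 CPM in diaphragm, where CPM, the level used throughout, is a gene's count per 1000000 non-mitochondrial UMIs summed over members. Myl6, the essential light chain, was at 10345 and 8723 CPM. Fbxl22, an F-box protein of sarcomeric and smooth muscle, was at 773 and 431 CPM, and Asb2, part of a ubiquitin ligase of muscle cells, at 402 and 437 CPM. No box lay in the windows of Acta2, Cnn1, Lmod1, Tpm2 or Pln, and the windows of Myh11 and Tagln were not analysed here.

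Members made up 22.5% of the quadriceps barcodes (1127 of 5010, exact binomial interval 21.3 to 23.7%) and 1.73% of the diaphragm barcodes (42 of 2432, interval 1.25 to 2.33%). These shares describe what reached the droplets after digestion, density separation and sorting. Among the few barcodes with fewer than 1000 UMIs, 9 of 149 in quadriceps and 0 of 67 in diaphragm held at least 5 UMIs of Myh11. The libraries shared 5 barcode sequences, of which 1 marked a member in one of them and 0 in both. In the plot of the gate genes, the members form a separate cloud at high Myh11 and high Acta2 plus Tagln in both muscles.

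**Figure D1:**
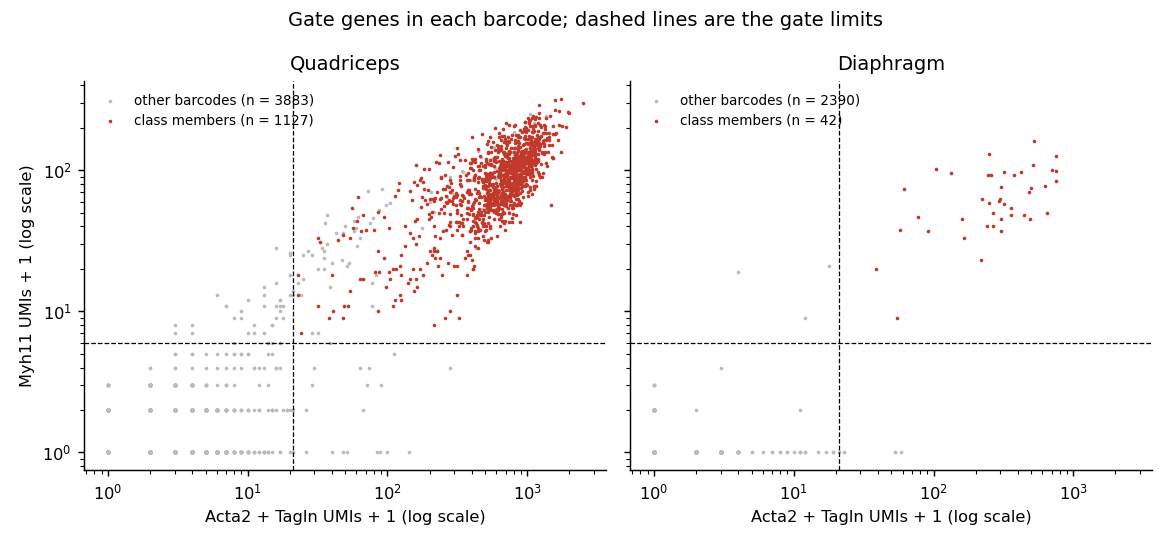
UMIs of Myh11 (vertical, plus 1, log scale) against UMIs of Acta2 plus Tagln (horizontal, plus 1, log scale) in each barcode with at least 1000 UMIs, quadriceps left and diaphragm right, with the gate limits dashed. The 1127 quadriceps and 42 diaphragm members (red) lie in the upper right, and grey points there are barcodes refused for Dcn or mitochondrial share.

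The limits cut through few barcodes. In quadriceps 59 barcodes failed the Dcn limit alone, with a median of 24914 UMIs, 633 UMIs of Acta2 plus Tagln and 89 UMIs of Myh11, and Scrublet, which scores barcodes for likeness to simulated doublets, called 51 of them (86.4%) against 18 of 1127 members (1.60%). The nearest barcode outside that limit had 52 UMIs of Dcn and the nearest inside had 47. A further 41 failed the mitochondrial limit alone, the nearest at 50.3% against 49.9% inside, 14 failed only Myh11 (nearest 4 UMIs against 6 inside) and 3 failed only Acta2 plus Tagln (nearest 15 against 22 inside). In diaphragm 2 barcodes failed a single limit, that of Acta2 plus Tagln, with 11 UMIs at the nearest against 38 inside. Scrublet called 1 of the 42 diaphragm members.

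The 7 marker genes of the class were present in nearly every member, which the gate itself ensured for Myh11, Acta2 and Tagln. Myh11 (chr16:14194535-14291372, minus strand, GENCODE M21 on GRCm38) was at 7637 CPM in quadriceps and 7338 CPM in diaphragm members, with a median of 87 and 61 UMIs per member. Acta2 (chr19:34241090-34255590, minus strand) was at 34375 and 22141 CPM, and Tagln (chr9:45929619-45936058, minus strand) at 22268 and 14169 CPM. The 4 markers outside the gate had UMIs in nearly all members too. Tpm2, the beta tropomyosin that lies along the actin filament, was found in 1126 of 1127 quadriceps and 42 of 42 diaphragm members, and Myl9 in all 1127 and all 42. Lmod1, leiomodin, which nucleates actin filaments, was found in 1115 and 40 members, and Pln, phospholamban, the brake on the calcium pump of the internal store, in 1112 and 42. The marker genes of the label were thus present in both muscles, although pericytes were not separated from the class and 48 quadriceps and 11 diaphragm members held a UMI of Rgs5.

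Markers of most other cell types were rare in members, and those of FAPs and pericytes were not. Dcn, a matrix proteoglycan of fibro-adipogenic progenitors (FAPs, the stromal cells of muscle), was at 82.7 CPM in quadriceps and 88.3 CPM in diaphragm members, against 18849 and 18936 CPM in the other barcodes, and the gate limited it. Of 6 endothelial markers, Pecam1, Cdh5, Kdr and Cldn5 had 0 UMIs in diaphragm members, and the highest in quadriceps members, Cldn5, had 3.35 CPM. All 6 satellite cell markers had 0 UMIs in diaphragm members, and Pax7 had 2 UMIs over all quadriceps members. At least 5 UMIs of a marker list were found in 5 quadriceps members for endothelial cells, 3 for satellite cells, 61 for muscle fibres, 6 for Schwann cells, 2 each for macrophages, T cells and NK cells and 1 for B cells, and in 0 diaphragm members for each of these lists. For the FAP list, whose cells lie in the same suspension, 454 quadriceps members (40.3%) and 9 diaphragm members (21.4%) had at least 5 UMIs, with at most 100 and 8 UMIs in a member. For the tenocyte list these were 104 (9.23%) and 0 members, and for the pericyte list, whose genes mural cells share, 791 (70.2%) and 33 (78.6%). The part of such UMIs in the results was not tested, and the 4 haemoglobin genes had 0 UMIs in diaphragm members and at most 1.60 CPM in quadriceps members, against up to 787 CPM in the other quadriceps barcodes.

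Smooth muscle RNA was also found outside the class in quadriceps, and most of it lay in few barcodes. Myh11 was at 261 CPM in the other quadriceps barcodes and at 3.33 CPM in the other diaphragm barcodes, and Acta2 at 959 and 15.9 CPM. In quadriceps 100 of these 3883 barcodes passed the limits for Myh11 and for Acta2 plus Tagln and had been refused for Dcn or mitochondrial share, and they held 83.8% of the Myh11 and 81.6% of the Acta2 UMIs, while diaphragm had 0 such barcodes. Without them Myh11 was at 44.2 CPM and Acta2 at 185 CPM in quadriceps, and 78.6% of the remaining barcodes had no UMI of Myh11. In barcodes with at least 50 UMIs of Dcn (the FAP gate), Myh11 was at 234 CPM over 2546 quadriceps barcodes, at 24.5 CPM without 59 such barcodes, and at 1.30 CPM over 2064 diaphragm barcodes. Folds of smooth muscle genes over the other barcodes were therefore measured against a higher level in quadriceps than in diaphragm, and such folds are not set against each other between muscles below. The source of this RNA was not tested.

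The mitochondrial share was higher in the class than in most other barcodes. Its median was 17.0% of UMIs in quadriceps members, with 90% of members between 10.9 and 30.5%, and 18.4% in diaphragm members. The other barcodes had medians of 4.63 and 4.29%, the FAP gate of 4.03 and 4.11%, the barcodes with satellite cell genes (the satellite gate) of 7.43 and 5.90%, the 42 quadriceps barcodes with endothelial genes of 10.1%, and 8 quadriceps barcodes outside the class with at least 5 UMIs of Rgs5, a pericyte gene, of 13.9%. A limit of 5% left 4 of 1127 quadriceps members (0.355%) and 0 of 42 diaphragm members, while it left 2167 of 3883 other quadriceps barcodes (55.8%) and 1664 of 2390 other diaphragm barcodes (69.6%). Members were not shallow: their median depth was 14740 UMIs and 3513 genes in quadriceps, against 8590 UMIs in the other barcodes, and 11820 UMIs and 2992 genes in diaphragm, against 11990 UMIs. The cause of the high share was not tested.

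**Figure D2:**
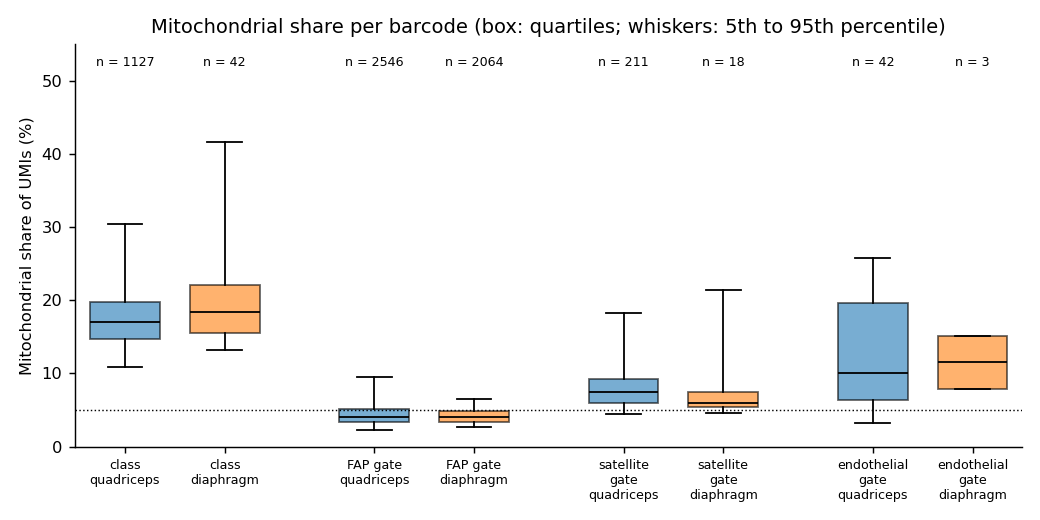
Share of UMIs from the 13 mitochondrially encoded genes (vertical, %) in barcodes of the class and of 3 other gates, by library, with the median as a line, quartiles as a box, the 5th to 95th percentile as whiskers, and a dotted line at 5%. The medians of the class, 17.0 and 18.4%, lie above those of the FAP gate, 4.03 and 4.11%.

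Nuclear genes for the respiratory chain were also higher in the class. Of 96 listed genes for its subunits and assembly, 76 passed the filter of at least 100 CPM in members of both libraries, and 66 of these were at least 2-fold above the other barcodes in both, as were 503 of all 1403 genes that passed (35.9%). The median log2 fold of these genes was 1.42 in quadriceps and 1.44 in diaphragm, beside 0.55 and 0.63 over all 1403 genes that passed the filter. A fold of 4 was reached in both libraries by 6 of the 76, beside 18.7% of all genes that passed: Ndufa12 and Sdhc, subunits of complexes I and II, Cox8a, a subunit of complex IV, Atp5b, the catalytic subunit of ATP synthase, and the tissue-restricted subunits Ndufa4l2 and Cox4i2. Cox4i2, the oxygen-responsive form of a complex IV subunit, was at 455 CPM in quadriceps and 806 CPM in diaphragm members and at 13 and 1.31 CPM in the other barcodes. In the 8 quadriceps barcodes outside the class with at least 5 UMIs of Rgs5 it was at 470 CPM.

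Over all genes, 263 of 1403 (18.7%) were at least 4-fold higher in members than in the other barcodes in both libraries, and 269 of 1362 (19.8%) that had at least 100 CPM in the other barcodes were at least 4-fold lower in both. Since the gate chose members on genes of this program in the same cells, these counts describe the class and carry no test. Beyond the gate's own genes, the 15 genes with the largest folds (ranked by the smaller of both libraries) included Tpm2, Cnn1, Myl9, Lmod1 and Pln of the contractile machinery. The others were Gm13861, Cox4i2, Tesc, Pcp4l1, Fbxl22, Timp4, Olfr558, Ppp1r14a, Nrip2 and Tinagl1. Gm13861, an intergenic-type long non-coding RNA (chr6:34651354-34653894, minus strand) that lies inside Cald1 on the opposite strand, was at 409 CPM in quadriceps and 223 CPM in diaphragm members and had 0 UMIs in the other diaphragm barcodes. Olfr558, an olfactory-type receptor, was found in 1088 of 1127 and 40 of 42 members, at 628 and 663 CPM. Tinagl1, a secreted basement membrane protein, was at 1001 and 1011 CPM, and Pcp4l1, a small calmodulin-binding protein, at 1231 and 1177 CPM, so both were nearly level between muscles. Tinagl1 was not particular to the class. In quadriceps it was at 763 CPM in the 42 barcodes with endothelial genes and 1197 CPM in the 8 with at least 5 UMIs of Rgs5.

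The thin and thick filament list had 15 genes, of which 12 passed the filter and 11 were at least 4-fold higher in both libraries. Cnn1, calponin, was at 908 CPM in quadriceps and 517 CPM in diaphragm members, and Smtn, smoothelin, at 959 and 650 CPM. Some non-muscle forms went the other way. Tpm4, a cytoskeletal tropomyosin, was at 68.3 and 70.2 CPM in members against 242 and 271 CPM in the other barcodes. Myh10, a non-muscle myosin, was at 7.80 and 13 CPM against 48.3 and 61.5 CPM. However, the non-muscle actin Actb was higher in members, at 12608 and 12576 CPM against 4279 and 4136 CPM. Actg2, the smooth muscle actin of gut and bladder, reached 30.8 and 20.8 CPM, from 60 quadriceps and 2 diaphragm members.

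The switch that turns contraction on and off was represented by both of its arms. Of 15 listed genes 13 passed the filter and 11 were at least 4-fold higher. Mylk, myosin light chain kinase, was at 3918 and 4560 CPM. Myosin phosphatase was present with its targeting subunit Ppp1r12a at 980 and 863 CPM, its catalytic subunit Ppp1cb at 1387 and 1432 CPM and its inhibitor Ppp1r14a (CPI-17) at 1823 and 902 CPM. The nitric oxide receptor was found with both subunits, Gucy1a3 at 882 and 811 CPM and Gucy1b3 at 301 and 442 CPM, together with Mrvi1, the substrate of the cyclic GMP kinase at the calcium store, at 343 and 483 CPM. Rhoa, a small GTPase whose signal inhibits the phosphatase, was lower in members, at 450 and 416 CPM against 755 and 642 CPM, while its effector Rock1 was at 707 and 712 CPM against 150 and 107 CPM.

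Calcium stores were marked by the pump Atp2a2 (SERCA2) at 1457 and 1593 CPM, its regulator Pln, the store protein Casq2 at 236 and 340 CPM, the release channel Itpr1 at 326 and 364 CPM and the junctional protein Jph2 at 292 and 343 CPM. In this list 8 of 15 genes passed the filter and 6 were at least 4-fold higher. Ryr2, the ryanodine receptor of heart, was at 51.5 CPM in quadriceps members and 28.6 CPM in diaphragm members and so stayed under the filter.

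Ion channels and receptors of vessel tone were mostly under 100 CPM, and 4 of 18 channel genes and 4 of 21 receptor genes passed the filter. The 4 channel genes, all at least 4-fold higher, were Kcna5, a voltage-gated potassium channel (294 and 333 CPM), its partner Kcnab1 (245 and 348 CPM), Kcnmb1, the smooth muscle subunit of the BK channel (130 and 148 CPM), and Cacna1h, a T-type calcium channel (158 and 171 CPM). Cacna1c, the L-type calcium channel, was at 92.0 and 104 CPM, and Kcnj8 and Abcc9, which form the vascular ATP-sensitive potassium channel, were at 2.77 and 2.19 CPM in quadriceps with 1 and 0 UMIs in diaphragm. Among receptors, S1pr3 for sphingosine 1-phosphate (411 and 413 CPM), Npy1r for neuropeptide Y (403 and 429 CPM) and Ednra for endothelin (107 and 166 CPM) were at least 4-fold higher. Agtr1a, the main angiotensin II receptor, had 11 UMIs over all quadriceps members and 0 in diaphragm, and was at 44.1 and 16.8 CPM in the other barcodes.

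Mural cells, the term for smooth muscle cells and pericytes together, share many genes, so the pericyte list was read for both sides. Of 14 genes 6 passed the filter and 5 were at least 4-fold higher: Mcam (559 and 847 CPM), Cspg4 or NG2 (335 and 356 CPM), Rgs4, a brake on G protein signals (376 and 818 CPM), Ndufa4l2 and Cox4i2. Pdgfrb, the receptor that recruits mural cells, was at 185 and 288 CPM against 108 and 132 CPM outside. The genes most often used for pericytes alone were scarce. Rgs5 was found in 48 of 1127 quadriceps and 11 of 42 diaphragm members, and 42.7% of its 293 quadriceps UMIs came from a single member. Vtn, Kcnj8, Abcc9, Anpep and Steap4 were each under 8 CPM in both muscles, and outside the class only 8 quadriceps barcodes and 0 diaphragm barcodes held at least 5 UMIs of Rgs5 without endothelial or satellite genes.

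Genes of Notch signalling, which keeps arterial smooth muscle mature, were found as receptor, ligand and targets, and signalling itself was not measured. The 14 listed genes summed to 2545 CPM in quadriceps members and 2373 CPM in the quadriceps barcodes with endothelial genes. Quadriceps barcodes with satellite cell genes had 1065 CPM, and all other quadriceps barcodes together 400 CPM. In diaphragm the sum was 4264 CPM in members and 1281 CPM in barcodes with satellite cell genes. Notch3, the receptor of smooth muscle, was at 642 and 870 CPM against 36.5 and 3.40 CPM outside, and its ligand Jag1 at 365 and 340 CPM. Nrarp, a feedback target, was at 245 and 343 CPM, and Hey2 at 78.9 and 96.1 CPM. In this list 5 of 14 genes passed the filter and 4 were at least 4-fold higher, the remaining one being the target Hes1. Among transcription factors, Mef2c (697 and 878 CPM), Tbx2 (298 and 424 CPM), Nr2f2 (336 and 405 CPM) and Foxc1 (102 and 210 CPM) were at least 4-fold higher, 4 of 8 that passed among 24 listed. Myocd, myocardin, was at 85.4 and 109 CPM against 2.95 and 0.112 CPM, and Srf at 99.5 and 122 CPM.

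The cell's anchorage and interstitial matrix divided by kind. Over all genes, 18.7% of those that passed the filter in members were at least 4-fold higher in both libraries. Of those that passed in the other barcodes, 19.8% were at least 4-fold lower. The counts of higher genes in the basement membrane and growth factor lists below lay near the first of these shares. Of 32 anchoring and cytoskeletal genes 24 passed the filter and 14 were at least 4-fold higher, among them Des, desmin (1403 and 1369 CPM), Actn1, alpha-actinin (1125 and 1211 CPM), the integrin subunits Itga7 (170 and 226 CPM) and Itga8 (351 and 218 CPM), Synpo2 and Pdlim3. Caveolae genes were higher by less, with 0 of 4 reaching 4-fold in both libraries and all 4 reaching 2-fold. The caveolae list summed to 2923 and 2643 CPM in members, and to more in the barcodes with endothelial genes, 5147 and 4105 CPM. In the basement membrane list of 19 genes, 2 of the 9 that passed the filter in members, Lama5 (156 and 148 CPM) and Sparcl1 (4054 and 3417 CPM) were at least 4-fold higher, while 4 of the 11 that passed in the other barcodes, Nid1, Lama2, Lamb1 and Sparc, were at least 4-fold lower. Most interstitial matrix genes were lower: 18 of the 21 that passed the filter in the other barcodes were at least 4-fold lower in both libraries, Col3a1 for example at 72.7 and 33.8 CPM against 6983 and 7083 CPM. The 3 others were Eln, elastin (307 and 400 CPM against 267 and 690 CPM), Ltbp1 (135 and 226 CPM against 140 and 208 CPM) and Lox, a collagen and elastin crosslinker (25.6 and 57.2 CPM against 141 and 171 CPM). Of 15 genes tied to the synthetic, growing state 3 passed the filter in members, 0 of them at least 4-fold higher, and 4 of the 8 that passed in the other barcodes were at least 4-fold lower, with Spp1 at 7 and 0 UMIs and Mmp2 at 4.67 and 7.80 CPM, although Vim, vimentin, was at 4829 and 2866 CPM against 3124 and 3282 CPM outside. Pdgfa, a growth factor for mural cells and FAPs, was at 272 and 346 CPM and the 1 gene of the growth factor list at least 4-fold higher, of 6 that passed among 24 listed, while 3 of 7, Pdgfra, Tgfbr2 and Igf1, were at least 4-fold lower.

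**Figure D3:**
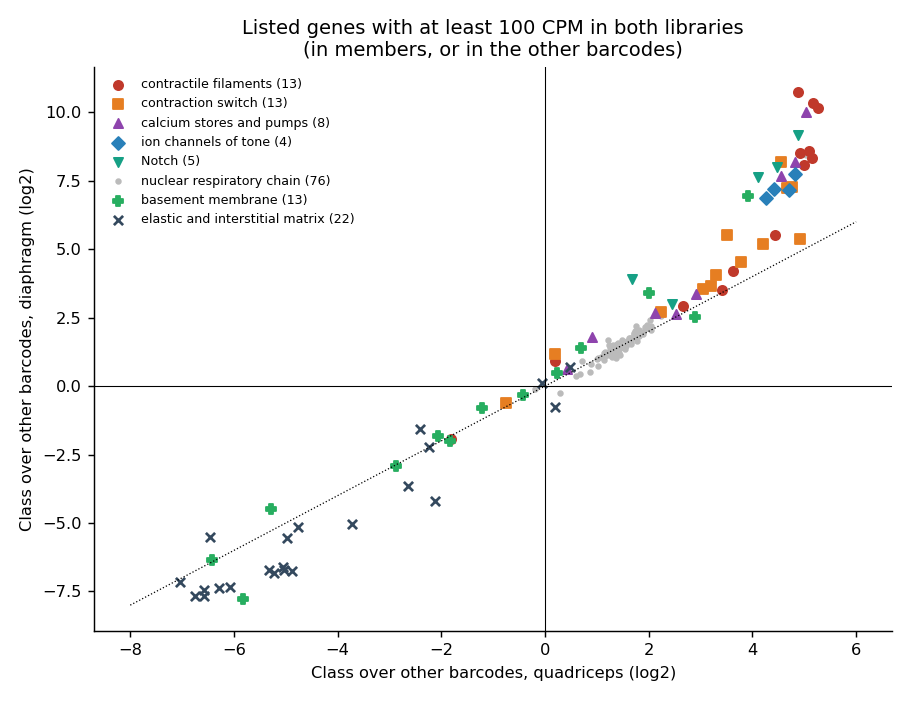
Log2 fold of members over the other barcodes in quadriceps (horizontal) and diaphragm (vertical), 1 point per listed gene with at least 100 CPM in both libraries, in members or in the other barcodes, with the count of genes per list in brackets and the line of equal folds dotted. Contractile and tone genes lie at the upper right and interstitial matrix genes at the lower left, and high folds lie above the line, Acta2 in the other barcodes being at 959 CPM in quadriceps (185 CPM without 100 barcodes that passed the smooth muscle limits) and 15.9 CPM in diaphragm.

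Between muscles, members of the class differed in a minority of genes. Of 1786 genes with at least 100 CPM in members of either muscle, 96 (5.38%) were at least 2-fold higher in diaphragm members and 19 (1.06%) were at least 2-fold higher in quadriceps members, and the median log2 difference, diaphragm minus quadriceps, was -0.08. Which side held more genes depended on the filter: a minimum of 20 CPM gave 328 and 216, and no minimum gave 1065 higher in diaphragm and 1792 higher in quadriceps members. Diaphragm members held 384851 non-mitochondrial UMIs in all and quadriceps members 13718524. Without a minimum, a gene of low level with no UMI in diaphragm members can thus count as higher in quadriceps. The part of depth in these counts was not tested. The direct ratios below are of CPM, with exact intervals for counting error only, and animal, dissection and library cannot be told apart from muscle. Contractile genes differed by less than 2-fold: Myh11 had a ratio of diaphragm to quadriceps of 0.961 (0.925 to 0.997) and Lmod1 of 0.974 (0.878 to 1.08). Acta2 (0.644, 0.630 to 0.658), Tagln (0.636, 0.619 to 0.654) and Tpm2 (0.666, 0.644 to 0.688) were lower in diaphragm members, and 0 of the 12 filament genes with at least 100 CPM passed the 2-fold limit in either direction, beside 5.38 and 1.06% of all genes.

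The largest group on the diaphragm side was that of immediate early genes, which cells switch on within minutes of a stimulus, tissue dissociation among them. Against the other barcodes of the same muscle, 0 of the 15 that passed the filter were at least 4-fold higher in both libraries. Between muscles, 18 of 19 such genes with at least 100 CPM in members of either muscle were at least 2-fold higher in diaphragm members, with a median log2 difference of 2.30, and the same 19 genes had a median of 1.93 in the other barcodes. Fos was at 1140 CPM in quadriceps and 6163 CPM in diaphragm members, Egr1 at 129 and 2006 CPM, Junb at 247 and 2762 CPM, and Socs3, the feedback inhibitor of cytokine signals, at 13.8 and 465 CPM. Their difference outside the class was of the same direction, 2.42 for Egr1, 2.26 for Junb and 2.78 for Socs3. The exception was Ctgf, at 1096 and 1003 CPM. Heat shock genes followed, with 7 of 13 at least 2-fold higher in diaphragm members, a median log2 difference of 1.61 and one of 1.27 in the other barcodes, Hspa1b for example at 971 and 4251 CPM. Against the other barcodes 1 of 11 heat shock genes, the small heat shock protein gene Hspb6 of smooth muscle, was at least 4-fold higher in both libraries. Of the 96 genes, 42 were at least 2-fold higher in diaphragm in the other barcodes too, and 44 in the FAP gate. In the other barcodes 23 of the 96 had a difference of the opposite sign. The median log2 difference of the 96 there was 0.78, beside -0.15 over all 1786 genes with at least 100 CPM in members of either muscle.

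Some genes were at least 2-fold apart between muscles inside the class and less than 2-fold apart outside it. Klf2, a transcription factor, was at 145 CPM in quadriceps and 1551 CPM in diaphragm members, a ratio of 10.7 (9.76 to 11.7), and at 670 and 614 CPM in the other barcodes, which are mostly of the FAP gate. Outside that gate Klf2 differed too, at 57.2 CPM in 211 quadriceps and 366 CPM in 18 diaphragm barcodes with satellite cell genes. It was at 2643 CPM in the quadriceps barcodes with endothelial genes. The median of Klf2 per member was 0 CPM in quadriceps and 800 CPM in diaphragm, and it had a UMI in 511 of 1127 and 31 of 42 members. Klf4, its relative, was at 80.9 and 691 CPM in members and 514 and 591 CPM outside, with 96.3 and 969 CPM in the barcodes with satellite cell genes. A part of tissue dissociation in the levels of Klf2 and Klf4 was not tested. Hes1, the Notch target, was at 314 and 1614 CPM in members, a ratio of 5.14, and at 97.8 and 107 CPM outside, and its median per member was 134 and 909 CPM. Rasd1, a small G protein, was at 35.2 and 320 CPM in members. Its levels outside were very low, at 3.29 and 1.98 CPM in all other barcodes and 1.47 and 1.77 CPM in the FAP gate. Cbfa2t3, a transcriptional corepressor, was at 17.6 and 169 CPM in members and 19.2 and 9.94 CPM outside, although at 34.1 and 108 CPM in the barcodes with satellite cell genes. Among genes of tone, Rgs4 (376 and 818 CPM) and Kcne4, a modulator of voltage-gated potassium channels (74.7 and 213 CPM), were at least 2-fold higher in diaphragm members, with log2 differences of -0.73 and 0.01 outside. Whether these differences between class and rest hold beyond these libraries was not tested.

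A few high ratios rested on single members. Gm12840, a long non-coding RNA with the largest ratio, had 56 UMIs from 3 of 42 diaphragm members, 67.9% of them in 1. Cck, the peptide cholecystokinin, had 40 UMIs from 4 members with 72.5% in 1, and Phlda1 had 104 UMIs from 14 members with 34.6% in 1. Rgs5, at 21.4 CPM in quadriceps and 174 CPM in diaphragm members, drew 80.6% of its 67 diaphragm UMIs from 5 members. By contrast, Egr1 was found in 40 of 42 diaphragm members and Hes1 in 38, and no member held over 10% of their UMIs.

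On the quadriceps side the 12 largest differences were in Enho, Fam129a, S100a6, Tmsb4x, Meox2, Msrb1, Ogn, H2afj, Ptgis, Uqcc2, Kcnma1 and Itih5. Enho, the precursor of the peptide adropin, was at 134 CPM in quadriceps and 26 CPM in diaphragm members, from 720 of 1127 and 10 of 42. Meox2, a homeobox factor of limb muscle and vessels, was at 184 and 72.8 CPM, and it was lower in diaphragm outside the class too, at 194 and 58.3 CPM. Kcnma1, the pore of the BK channel, was at 118 and 54.6 CPM, whereas its partner Kcnmb1 was level, and Ptgis, prostacyclin synthase, was at 172 and 78.0 CPM, the reverse of its log2 difference of 1.80 outside the class. S100a6, a calcium-binding protein, was at 867 and 294 CPM. Ppp1r14a, the phosphatase inhibitor, also passed the limit at a ratio of 0.495, as did Heyl, a Notch target, at 157 and 78 CPM, and both fell short of it when members over 20% mitochondrial share were left out (log2 differences of -0.79 and -0.78). P2rx1, the receptor through which ATP from sympathetic nerves contracts arteries, had 788 UMIs from 290 quadriceps members (57.4 CPM) and 0 UMIs in the 42 diaphragm members, at least 7.37-fold higher if the floor is 3 counts over the diaphragm members, and was under the 100 CPM filter.

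**Figure D4:**
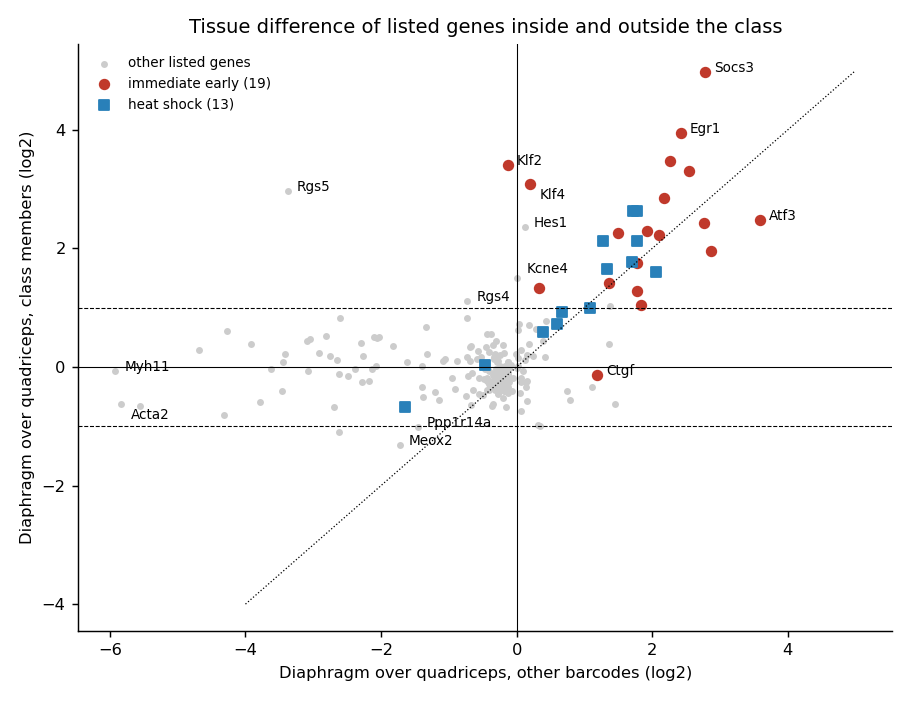
Log2 difference between muscles, diaphragm minus quadriceps, in the other barcodes (horizontal) and in class members (vertical) for listed genes with at least 100 CPM in members of either muscle, with the limit of 2-fold dashed and the line of equal difference dotted. Of 19 immediate early genes (red) 18 lie above the upper limit, mostly with a difference outside the class too, while Klf2, Klf4 and Hes1 lie high at a horizontal value near 0.

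Shares of members with a UMI depend on depth, so members and FAP gate barcodes were thinned to 500 non-mitochondrial UMIs, and no member was too shallow for this. After thinning, Mylk was found in 83.8% of quadriceps members (81.5 to 85.9%) and 85.7% of diaphragm members (71.5 to 94.6%), against 100% in both before, and in 4.28 and 0.436% of the FAP gate. Mcam was found in 24.4% (21.9 to 27%) and 52.4% (36.4 to 68.0%), and in 0.746 and 0% of the thinned FAP gate, the upper exact bound of the latter (0 of 2064) being 0.179%, and in 5.50 and 0.533% of that gate before thinning. All these shares are of a single random draw. For Mcam they stood further apart than its full counts, with medians of 497 and 825 CPM per member. Before thinning, 96.5% of quadriceps and 95.2% of diaphragm members held a UMI of Mcam. Hes1 was found in 12.5% (10.6 to 14.6%) and 54.8% (38.7 to 70.2%), with 4.44 and 5.09% in the FAP gate, and Klf2 in 6.12% (4.79 to 7.68%) and 33.3% (19.6 to 49.5%), with 23.9 and 21.1%. Npy1r, at 17.8 and 9.52%, had overlapping intervals. Members held a median of 353 genes per 500 UMIs in both muscles, and FAP gate barcodes 368 and 364.

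Within the class, levels changed with the mitochondrial share. From quadriceps members at 10 to 20% (822 members) to those at 30 to 50% (59 members), Myh11 went from 7420 to 12477 CPM, Mcam from 527 to 1112 CPM, Notch3 from 616 to 1179 CPM and the nuclear RNA Malat1 from 68885 to 117840 CPM, while Acta2 went from 35291 to 22255 CPM, Tagln from 23117 to 13297 CPM and Tpm2 from 14861 to 11109 CPM. Diaphragm members moved the same way, with 27 and 7 members in these bins: Myh11 from 6015 to 12935 CPM, Malat1 from 77068 to 142308 CPM and Acta2 from 23580 to 16863 CPM. Median depth was 15298 and 7945 UMIs in the 2 quadriceps bins and 12648 and 7901 in the 2 diaphragm bins, so depth moved with the share. The 41 quadriceps members at or under 10% stood apart in another way, with Des at 263 CPM against 1455 CPM in the next bin, Rgs5 at 374 against 8.02 CPM and Mgp at 4379 against 44.8 CPM. However, a single member held 42.7% of all Rgs5 UMIs of the quadriceps class, and 5 members held 68.4% of all its Mgp UMIs. Immediate early genes summed to between 6693 and 8480 CPM in the quadriceps bins and to between 25364 and 33079 CPM in the diaphragm bins, so the difference between muscles was present in each bin that both filled.

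**Figure D5:**
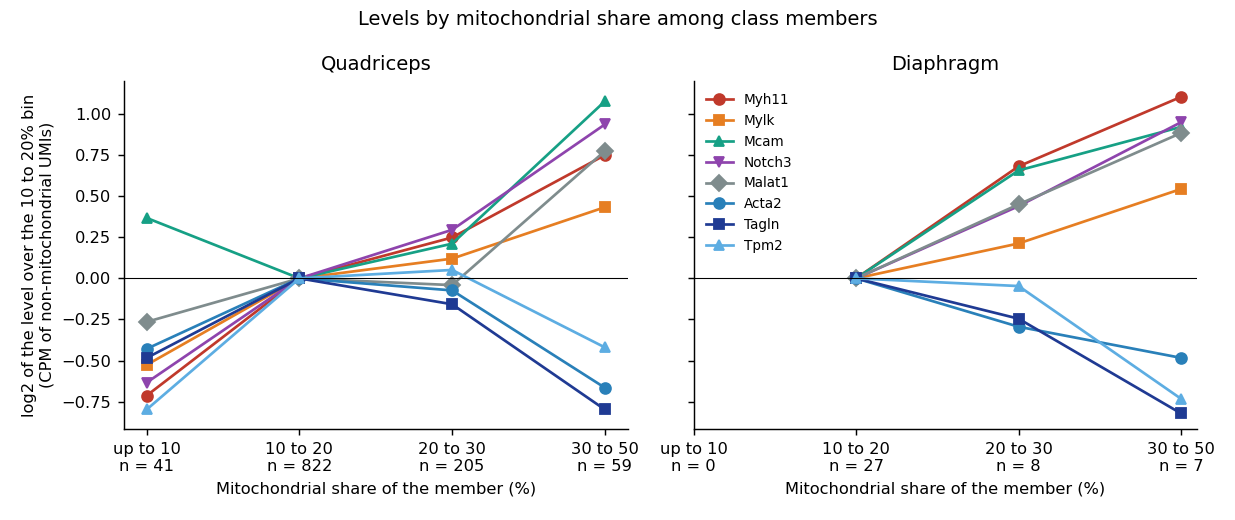
Level of 8 genes by mitochondrial share of the member (horizontal, 4 bins in % with the number of members under each), as log2 over the 10 to 20% bin of the same library (vertical), quadriceps left and diaphragm right. Myh11, Mylk, Mcam, Notch3 and Malat1 are highest and Acta2, Tagln and Tpm2 lower in the 30 to 50% bin than in the 10 to 20% bin in both muscles.

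Contractile genes differed in how much they varied from member to member. Beyond counting noise, the coefficient of variation over quadriceps members was 0.252 for Mylk, 0.274 for Myl9, 0.282 for Lmod1, 0.295 for Tpm2, 0.430 for Pln and 0.467 for Cnn1, beside a median of 0.248 over 3502 genes with at least 0.5 UMIs per member. The gate set a minimum count for Myh11 (0.339) and for the sum of Acta2 (0.233) and Tagln (0.280). Des varied more, at 0.738, as did Fos, at 1.23. Among the 10 most variable genes were Mgp, S100a4, Fabp4, Pmp22, Fn1, Hmgb2, Arl6ip1, Sox4 and Cdkn1a. Mgp, matrix Gla protein, was found in 267 quadriceps members with 24.1% of its UMIs in 1 of them and 68.4% in 5.

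Clustering the quadriceps members, without the mitochondrial genes, gave 6 subclusters of 263, 233, 219, 208, 134 and 70 members. They were made from the same values that describe them, so the following is description only, and none is named as a type. The first and second had no gene at least 2-fold above the other members, and were led by Fabp4, Dcn, Selenbp1 and Des at low folds and by Mrps6, Sh3bgr and Hist1h1c. The third was led by Mt3, Mgp, Bcas3, Ndufa4l2, Hopx, Atp2a3, Ano1 and Serpini1, with Ano1, a calcium-activated chloride channel, at 175 CPM against 76.7 CPM in the other members. Its Mgp came from 48 of 219 members with 70.9% of the UMIs in 1, and without that member was at 132 CPM against 186 CPM in the other members. The leading genes of the fourth included Actg2, Npnt, Efhd1, Sorl1, Fhl1, Bgn and Gm37800. Bgn, biglycan, came from 203 of 208 members there and was at 876 against 98.3 CPM, and Npnt, nephronectin, from 151, at 126 against 5.06 CPM. The same subcluster had elastin at 726 CPM and desmin at 566 CPM, where the other 5 lay between 71.7 and 335 CPM and between 1325 and 1909 CPM. Some marker lists of other cell types were highest there too, FAP markers at 694 CPM (265 to 438 in the other 5), muscle fibre markers at 180 CPM (30 to 103) and 4 Schwann cell genes at 75.8 CPM (4.13 to 12.5). Dcn of the FAP list was not, at 70.6 CPM (69.1 to 120), and Acta1 alone gave 88.8 CPM of the muscle fibre sum. The endothelial, tenocyte, macrophage and pericyte lists were highest in other subclusters. The part of these markers in the subcluster was not tested.

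The fifth subcluster was led by Lyz2, Atf3, Gadd45b, Junb, Egr1, Ppp1r15a, Fos and Nr4a2. Lyz2, a macrophage gene, came from 3 of its 134 members with 86.6% of the UMIs in 1, whereas Atf3 came from 126, at 1110 against 216 CPM, and Fos from 131, at 2837 against 883 CPM. Its immediate early genes summed to 14879 CPM, against 5316 to 8395 CPM in the other 5 and 25364 CPM or more in the diaphragm bins. The sixth, of 70 members, had the highest mitochondrial share (median 25.6%) and was led by Gm42418, Tgfbr3, Atp10a, Adgrg6, Slc39a14, Pgm2, Scn3a and Olfr78. Myh11 was at 10866 CPM there and Acta2 at 26859 CPM, against 5993 to 9126 CPM and 31755 to 37104 CPM in the other 5.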

How the data were processed

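Single-cell RNA was measured in 2 mouse libraries, 1 of quadriceps and 1 of diaphragm. The deposited values were raw UMI counts per gene and barcode. The submitters' processing notes name Cell Ranger 3.0.0, Seurat and the mm10 build, without their order, and no normalised values were used. The files held 27998 genes, of which 27645 identifiers were found in GENCODE M21 (GRCm38).

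The class was selected by the gate given in the report. Members, gene lists and comparison gates were chosen with earlier results of these data known. Counts were summed over barcodes and scaled to CPM of non-mitochondrial UMIs, because the mitochondrial share differs between classes, and 1 CPM was added before taking log2 folds. Tissue differences were called at 2-fold where the higher tissue reached 100 CPM, class differences at 4-fold in both libraries. Genes named were the 7 markers, up to 6 per list by fold with members going against it, 15 leading genes, 12 per direction between tissues, 10 most variable genes and 8 per subcluster. Other genes of the lists were named for their role after their values were seen, as were the printed promoters. A gene that this rule selects is not reported here. The FAP gate took barcodes outside the class with 50 or more UMIs of Dcn, the endothelial gate at least 5 of Pecam1 plus Cdh5 and the satellite gate at least 3 of Pax7, Myf5 plus Chodl, all with at most 50% mitochondrial UMIs and the latter gates under 50 of Dcn. Intervals were exact binomial or Poisson at 95%. Shares used thinning to 500 UMIs (seeded). Subclusters used 2000 variable genes, 10 principal components, 20 neighbours and Leiden at resolution 0.5 (scanpy 1.11.5, leidenalg 0.10.2). Doublets were kept, and Scrublet was run as an alternative. It called 95 of 5159 quadriceps barcodes (1.84%) and 3 of 2499 diaphragm barcodes (0.120%). Computation used Python 3.11.15, NumPy 2.4.6, SciPy 1.17.1 and pandas 2.3.3, and the fold, interval and variance scripts were tested on simulated data.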

Additional observations from a re-analysis of the deposited data

Results flagged for a closer look

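Klf2 lay on opposite sides of the other barcodes in the 2 muscles. Its log2 fold, members over other barcodes, was -2.20 in quadriceps (145 against 670 CPM) and 1.34 in diaphragm (1551 against 614 CPM), and it was the only gene with at least 100 CPM in members of both libraries that differed at least 2-fold in opposite directions. With 1 library per muscle the difference was not tested.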

How the results depend on the processing

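With at most 5% mitochondrial UMIs the class fell to 0.0798% of quadriceps and 0% of diaphragm barcodes, so no gene count could be made, and at most 20% gave 17.2 and 1.11%. A minimum of 20 CPM gave 328 genes higher in diaphragm members, 216 higher in quadriceps members and 480 raised in the class, and no minimum gave 1065, 1792 and 595. Leaving out members with 5 or more UMIs of certain other types' markers, chosen after seeing the data, gave a quadriceps share of 20.9%. The lists used were those of endothelial, satellite, muscle fibre, Schwann, macrophage, T, B and NK cells. The FAP, tenocyte and pericyte lists were not used to leave members out. Leaving the other quadriceps barcodes that passed the smooth muscle limits out of the comparison, also chosen then, gave 281 raised genes. In all, 44 of 55 values stayed within the counting interval (shares) or 1.5 times (counts). Of 804 fold values for 67 genes, 762 stayed within their counting interval and 0 of the called ones changed sign. Cyr61, Foxc1, Heyl, Itih5, Ppp1r14a, Ptgis and Uqcc2 lost the 2-fold call under at least 1 alternative. Causes were not tested. The 42 diaphragm members limit what can be seen there, 3 counts being 7.80 CPM. No paired analysis was possible because each muscle has 1 library.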
